A study of Mus musculus with 8 samples.

Results

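Genes of the Hippo pathway were followed in the mouse embryonic stem cell (ESC) line R1/E after knock-down of Rad21, a gene for 1 of the proteins that form the cohesin ring around DNA. The members were 10 genes of 18193 measured, taken by their gene symbol: the transcription factor genes Tead1, Tead2, Tead3 and Tead4, the coactivator genes Yap1 and Wwtr1, the kinase genes Lats1 and Lats2, and the motin genes Amot and Amotl2. They were represented by 23 probe sets of an Affymetrix mouse array, and the brightest probe set of each gene was taken as its main value. Of the 8 arrays, 4 came from cells transfected for 48 h with esiRNA, an enzymatically made pool of short interfering RNAs, against Rad21, and 4 from cells given esiRNA against luciferase (Luc), which mouse cells lack. Each well of 80000 cells received 800 ng esiRNA, and the labels name no genetic change in the cells of either group. Both groups grew on gelatin without feeder cells, in medium with serum and LIF. The labels number 4 biological replicates per group without naming cultures, so p-values measure the spread between these arrays. Values are log2 signals, for which 1 unit is a doubling, and a change is the knock-down mean less the control mean.

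The Hippo pathway is a kinase relay that restrains growth in response to cell contact, polarity and tension. Mst kinases with their partner Sav1 activate the Lats kinases, and Lats kinases phosphorylate Yap and its relative Taz (encoded by Wwtr1), which then stay in the cytoplasm. Unphosphorylated Yap and Taz enter the nucleus and bind Tead proteins, which recognise a short DNA motif and switch on genes such as Ccn1, Ccn2, Amotl2 and Lats2. Motins bind Yap at junctions and on actin and promote its phosphorylation, and in the early mouse embryo Tead4 with Yap directs outer cells to the trophectoderm.

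The targeted transcript was lower in the knock-down at all 3 Rad21 probe sets, and the brightest held 33.4% of the control signal (log2 change -1.58 ± 0.21, SE, limma adjusted p = 0.00222). The others held 50.6% and 16.6%. Array medians lay between 3.08 and 3.16. The second principal component (11.6% of the variance) parted the arrays of replicates 1 and 2 from those of replicates 3 and 4, whether Luc or knock-down. Values within these replicate sets are therefore given where they matter. The brightest Rad21 probe set changed by -1.80 in replicates 1 and 2 and by -1.36 in replicates 3 and 4. A limma test of this difference between the sets did not pass (interaction adjusted p = 0.201). Of 8 ESC markers 0 rose and 6 fell, and their mean per array was 13.56 to 13.66 in the control and 12.93 to 13.00 in the knock-down. Of 10 fibroblast markers 1 rose (Acta2) and 1 fell (Thy1), 7 had both group means under 4, near the low end of the scale, and the mean per array went from 3.65 to 3.78 in the control to 3.996 to 4.07 in the knock-down. Of 9 trophectoderm markers 2 rose (Krt7 and Cdx2) and of 7 primitive endoderm markers 1 rose (Dab2), with means per array of 5.17 to 5.47 against 5.74 to 5.95 and 3.06 to 3.13 against 3.34 to 3.52. The called shares were 75% (ESC), 20% (fibroblast), 22.2% (trophectoderm) and 14.3% (primitive endoderm), beside 22.6% of all genes. The changes of Acta2 (2.71), Krt7 (2.83) and Dab2 (2.06) were large. Among the other trophectoderm markers Krt18 was called as higher in each replicate set alone (0.40 and 0.55). Krt8 was called as higher (0.52) and Eomes as lower (-0.49) in replicates 1 and 2 alone. The median changes of the fibroblast, trophectoderm and primitive endoderm lists were -0.00677, 0.02 and 0.04. The part of these markers in the Hippo results was not tested, and in such bulk RNA fewer cells of a type cannot be told apart from less RNA per cell.

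Promoters are shown for Amot, Lats2 and Amotl2, the members with the largest rises, and for Ccn1, the target gene with the largest rise. Sequences are those of RefSeq on build GRCm38.p6, from 250 bases before to 50 bases after the annotated start, on the gene's strand from 5′ to 3′. Of the 10 members 8 matched an entry. Capitals mark the Tead motif, searched as GGAATG and its reverse complement CATTCC. A match of one form cannot overlap a match of the other. The windows lie at chr9:102717554-102717853 on the plus strand (Amotl2), chr14:57746074-57746373 on the minus strand (Lats2, the first of 2 annotated starts), chr3:145649936-145650235 on the minus strand (Ccn1) and chrX:145487590-145487889 on the minus strand (Amot).
Amotl2: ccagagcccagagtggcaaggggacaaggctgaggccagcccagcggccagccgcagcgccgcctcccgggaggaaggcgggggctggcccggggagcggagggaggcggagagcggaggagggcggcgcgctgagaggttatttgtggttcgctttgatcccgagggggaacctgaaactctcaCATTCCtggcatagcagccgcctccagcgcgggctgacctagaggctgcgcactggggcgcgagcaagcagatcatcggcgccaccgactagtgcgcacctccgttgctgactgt
Lats2: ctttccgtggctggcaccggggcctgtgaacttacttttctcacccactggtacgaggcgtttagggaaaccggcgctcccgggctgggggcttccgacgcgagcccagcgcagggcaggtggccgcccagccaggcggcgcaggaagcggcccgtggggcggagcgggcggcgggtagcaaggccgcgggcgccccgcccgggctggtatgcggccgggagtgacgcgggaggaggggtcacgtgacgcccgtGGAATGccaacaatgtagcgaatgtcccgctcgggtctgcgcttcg
Ccn1: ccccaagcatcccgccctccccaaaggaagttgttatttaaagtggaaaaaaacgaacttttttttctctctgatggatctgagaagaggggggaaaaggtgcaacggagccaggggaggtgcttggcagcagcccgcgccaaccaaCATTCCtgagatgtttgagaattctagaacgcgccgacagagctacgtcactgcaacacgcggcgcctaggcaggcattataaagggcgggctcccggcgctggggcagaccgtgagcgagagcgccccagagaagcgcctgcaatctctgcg
Amot: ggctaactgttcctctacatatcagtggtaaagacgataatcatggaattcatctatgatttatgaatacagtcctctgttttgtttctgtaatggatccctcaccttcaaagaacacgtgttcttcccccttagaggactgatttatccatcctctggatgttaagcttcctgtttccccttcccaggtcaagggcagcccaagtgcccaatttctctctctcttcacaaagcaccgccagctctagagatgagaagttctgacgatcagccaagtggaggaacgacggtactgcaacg

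The motif began 65 bases before the annotated start of Amotl2 and 103 bases before that of Ccn1. In Lats2 it began 4 bases after the first start base, and the window of the second start held no match. The window of Amot held no match either, which says only that these letters are not in it. Among all windows of this length 14.7% held the motif (4817 of 32851), and counted by gene 16.6% had at least 1 window with it. Of the 8 members with a window 5 held it: Tead3, Yap1, Wwtr1, Lats2 and Amotl2. Of these 5 genes 2, Lats2 and Amotl2, rose in the knock-down. Over the members and the other listed pathway genes together, a match was found for 8 of 18 genes that rose, for 0 of 5 that fell and for 11 of 25 that did not pass the test, that is for 44.4% of the rising genes and 44.0% of those not called. A match of letters is a description and not a bound site.

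Of the 10 genes 5 rose (Amot, Amotl2, Lats2, Tead1 and Lats1), 2 fell (Tead4 and Tead2) and 3 did not pass the test (Yap1, Wwtr1 and Tead3). Among all 18193 genes 22.6% were called, 10.1% as higher and 12.6% as lower. The arrays of the 2 groups did not overlap at the same 7 genes, beside 27.8% of all genes. The median log2 change of the 10 genes was 0.16, beside 0.00334 over all genes. Within replicates 1 and 2 alone 6 of the 7 genes were called (all but Tead2), beside 19.9% of all genes, and within replicates 3 and 4 alone 3 of the 7 (Tead1, Amot and Amotl2), beside 15.3%.

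**Figure D1:**
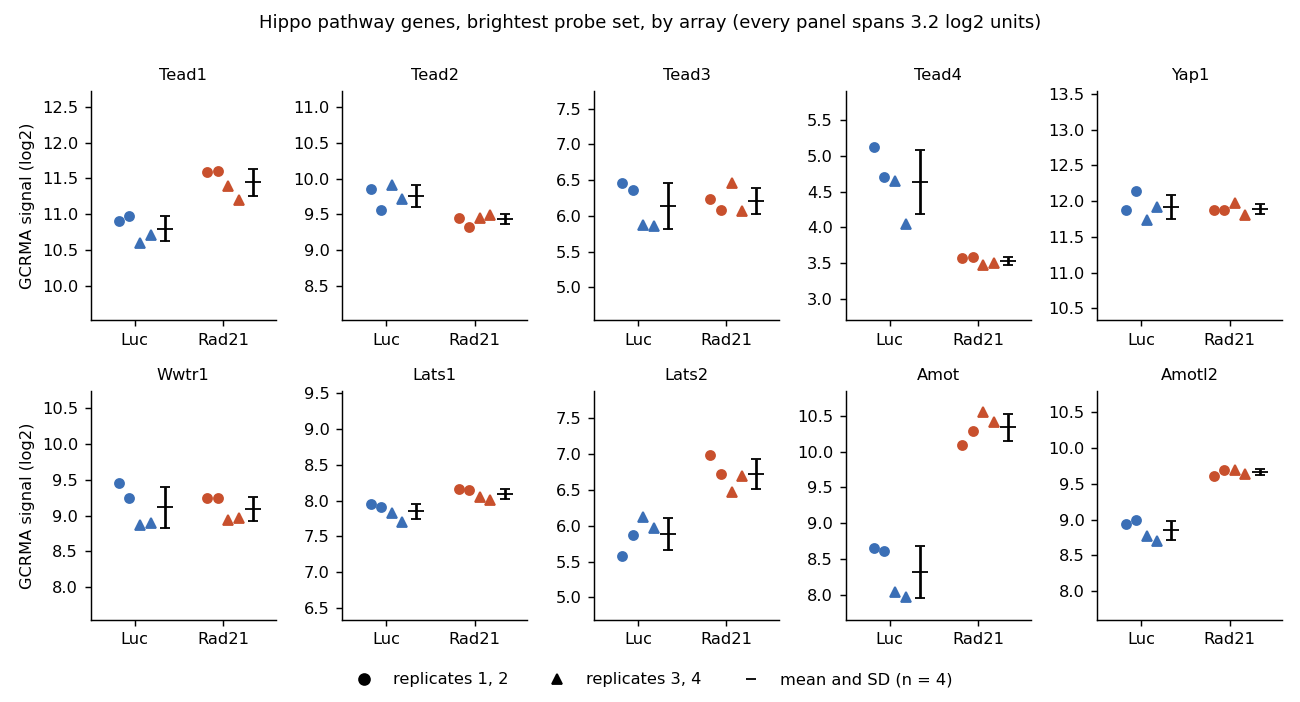
GCRMA signal (log2, y axis) of the brightest probe set of each of the 10 Hippo genes on the 4 Luc and 4 Rad21 knock-down arrays. Points are arrays, with circles for replicates 1 and 2 and triangles for replicates 3 and 4, and the black bar gives the mean and SD (n = 4). Amot stands highest above its control (8.31 against 10.34), Tead4 lies below it (4.63 against 3.53), and the groups overlap at Tead3, Yap1 and Wwtr1.

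The motins tether Yap outside the nucleus, and Amot had the largest rise among the members. Amot read 8.65, 8.61, 8.03 and 7.96 on Luc arrays 1 to 4 and 10.10, 10.29, 10.55 and 10.42 on the knock-down arrays. Every knock-down array was above every control array, and control arrays 3 and 4 lay lower than 1 and 2 while knock-down arrays 3 and 4 lay higher. The means were 8.31 ± 0.37 and 10.34 ± 0.19 (SD, n = 4), a 4.07-fold rise (log2 change 2.03 ± 0.19, SE, limma adjusted p = 4.52e-04). Replicates 1 and 2 gave a change of 1.57 and replicates 3 and 4 one of 2.49, and this difference of 0.92 ± 0.11 (SE) passed the interaction test (limma adjusted p = 0.0430), as did 1.03% of all genes. The interaction was not called by plain analysis of variance (adjusted p = 0.195) or after quantile normalization (adjusted p = 0.0616).

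A pair of dimmer Amot probe sets had low signal on all 8 arrays, with means over all arrays of 2.82 and 2.40 and differences of 0.10 and -0.01 (limma adjusted p = 0.639 and 0.973). The rise of Amot thus rests on 1 of its 3 probe sets. Amotl2, a motin that is also a Tead target, read 8.94, 8.99, 8.78 and 8.70 on the Luc arrays and 9.61, 9.70, 9.69 and 9.64 on the knock-down arrays. The groups lay well apart, and the knock-down arrays were within 0.1 of each other. The rise was 1.75-fold at its only probe set (log2 change 0.81 ± 0.07, SE, n = 4, limma adjusted p = 2.65e-04).

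Both Lats kinase genes, whose products phosphorylate Yap and Taz, were higher in the knock-down at their brightest probe set. Lats2 read 5.58, 5.88, 6.12 and 5.97 in the control and 6.99, 6.73, 6.47 and 6.69 in the knock-down. The groups did not overlap, with the nearest arrays being replicate 3 of both. The change was 0.83 ± 0.14 (SE, n = 4, 1.78-fold, limma adjusted p = 0.00646), and it was 1.13 within the first replicate set but 0.54 within replicates 3 and 4, where the call was lost (adjusted p = 0.0836). This probe set is of the _x_at kind, whose probes may also bind RNA of other genes, and the other 5 Lats2 probe sets were not called. The brightest of those had a difference of 0.03 ± 0.05 (SE, adjusted p = 0.857; control mean 4.69), and 4 had means under 4. Over all 6 probe sets the mean difference was 0.18 (adjusted p = 0.0655), so the rise of Lats2 is not settled by these arrays.

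Lats1 differed less. Its control arrays read 7.95, 7.91, 7.83 and 7.70 and its knock-down arrays 8.16, 8.15, 8.05 and 8.01. The groups were separate by a narrow margin. The change was 0.25 ± 0.06 (SE, n = 4, 1.19-fold, limma adjusted p = 0.0349), and the dimmer probe set had a larger difference that did not pass (0.40 ± 0.16, adjusted p = 0.157). The call of the brighter probe set was kept without Luc replicate 1 or knock-down replicate 4 and lost without any of the other 6 arrays (highest adjusted p = 0.0956). It was also lost with plain analysis of variance (adjusted p = 0.0742) and with a variance trend and robust prior (adjusted p = 0.0766). Within replicates 3 and 4 it was lost too (adjusted p = 0.101). Under limma it was kept with a block for the replicate number (adjusted p = 0.00943) or the replicate set (adjusted p = 0.00286). Array weights (adjusted p = 0.0139), quantile normalization (adjusted p = 0.0223) and centring on bright probe sets (adjusted p = 0.0170) also kept it.

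The Tead genes, which encode the DNA-binding partners of Yap and Taz, changed in different directions. Tead1 read 10.90, 10.98, 10.60 and 10.70 in the control and 11.59, 11.60, 11.39 and 11.20 in the knock-down, without overlap. It rose 1.57-fold (log2 change 0.65 ± 0.12, SE, n = 4, limma adjusted p = 0.0090), with much the same change in replicates 1 and 2 (0.66) as in replicates 3 and 4 (0.64). Its dimmer probe set had a similar difference that did not pass (0.55 ± 0.16, adjusted p = 0.0647).

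Tead4, the member needed for the trophectoderm, read 5.13, 4.71, 4.65 and 4.04 in the control and 3.57, 3.59, 3.48 and 3.50 in the knock-down. Control arrays were spread over more than 1 unit, whereas knock-down arrays lay close together at a level under 4. The signal fell to 46.7% of the control (log2 change -1.10 ± 0.20, SE, n = 4, limma adjusted p = 0.00987), with a change of -1.34 within replicates 1 and 2. In replicates 3 and 4 alone the difference was -0.86 and was not called (adjusted p = 0.157). The size of this fall is not settled, since GCRMA, by which the authors made the values, compresses dim signals at the bottom of its range. The dimmer Tead4 probe set had a difference of -0.20 ± 0.06 with both means under 4 (adjusted p = 0.0666).

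Tead2, a Tead gene known for its expression in early embryos and ESCs, read 9.86, 9.56, 9.91 and 9.72 in the control and 9.45, 9.33, 9.45 and 9.49 in the knock-down. The lowest control array was just above the highest knock-down array. The fall was to 79.7% of the control (log2 change -0.33 ± 0.08, SE, n = 4, limma adjusted p = 0.0309) but neither replicate set gave a call on its own (adjusted p = 0.225 and 0.114). The call was kept without Luc replicate 2 and lost when any of the other 7 arrays was left out (highest adjusted p = 0.0838), with plain analysis of variance (adjusted p = 0.0705), after quantile normalization (adjusted p = 0.0573) and after centring on bright probe sets (adjusted p = 0.0539). Under limma the Tead2 call was kept with a block for the replicate number (adjusted p = 0.0242) or the replicate set (adjusted p = 0.0277). Array weights (adjusted p = 0.0101) also kept it. Tead3, with 1 probe set, read 6.47, 6.36, 5.88 and 5.86 in the control and 6.24, 6.08, 6.46 and 6.07 in the knock-down. The groups overlapped, and the difference was 0.07 with a 95% confidence interval from -0.31 to 0.46 (limma adjusted p = 0.913).

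The coactivator genes did not pass the test. Yap1 read 11.88, 12.14, 11.74 and 11.91 on the control arrays and 11.87, 11.87, 11.98 and 11.81 on the knock-down arrays. The knock-down arrays all lay inside the range of the control, and the difference was -0.03 (95% confidence interval -0.22 to 0.16, limma adjusted p = 0.925). The dimmer Yap1 probe set had a difference of 0.27 ± 0.12 (SE, adjusted p = 0.211). Wwtr1 read 9.45, 9.25, 8.87 and 8.90 in the control and 9.24, 9.24, 8.94 and 8.96 in the knock-down. In both groups replicates 1 and 2 were higher than replicates 3 and 4, and the groups overlapped. The difference was -0.02 (95% confidence interval -0.37 to 0.33, limma adjusted p = 0.982), and the dimmer Wwtr1 probe sets had differences of -0.18 and -0.20 (adjusted p = 0.480 and 0.587). A p that misses the threshold does not show equal levels.

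**Figure D2:**
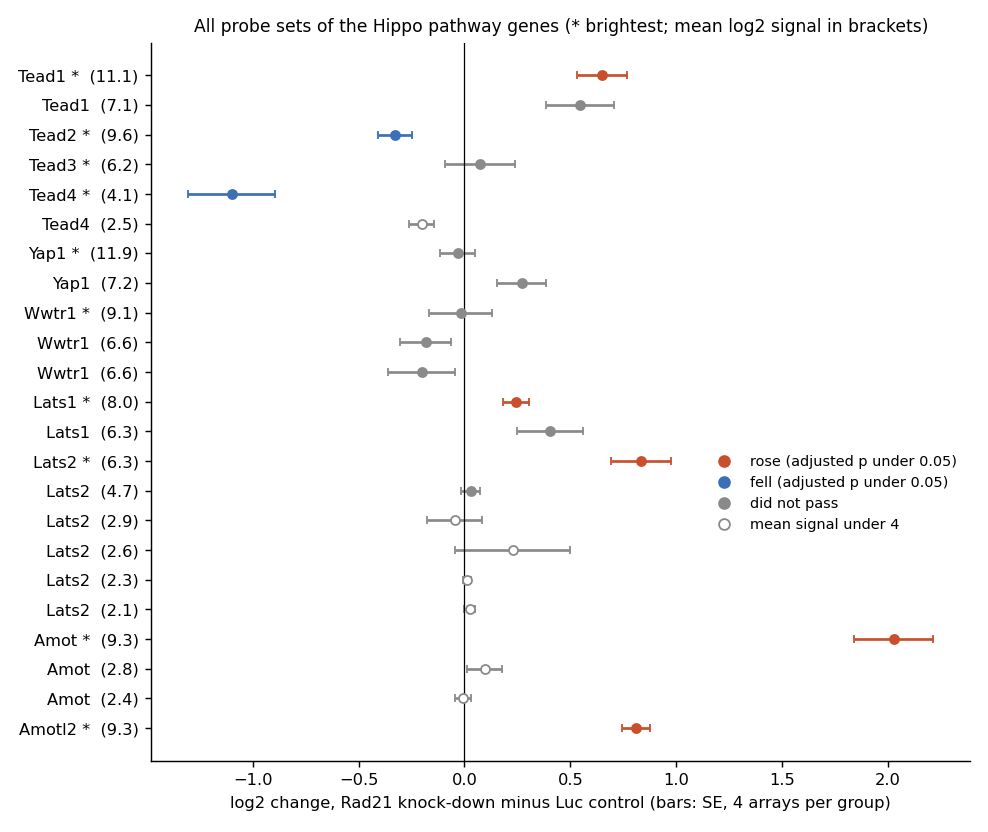
Log2 change (x axis, Rad21 knock-down minus Luc control, bars show the SE, 4 arrays per group) of all 23 probe sets of the 10 Hippo genes, with the mean log2 signal over all arrays in brackets. Stars mark the brightest probe set of each gene, colours mark probe sets called at an adjusted p under 0.05 and open circles those with a mean under 4. All 7 called probe sets are the brightest of their gene, and 7 of the 23 have a mean under 4.

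Of the 23 probe sets 7 were called, beside 14.9% of all probe sets. Groups did not overlap at 7 of the 23, beside 19.4% of all probe sets, and 1 (Amot) passed the interaction test, beside 0.777%. No gene had called probe sets of opposite direction. A further probe set that carries the symbols of both Lats2 and Xpo4 was not used.

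Whether paralogs changed unequally was asked within each array, by subtracting the log2 value of one from that of the other and comparing the differences between the groups by an exact two-sided permutation test over the 8 arrays. The smallest p that the 70 splits allow is 0.0286, and 9 pairs were compared. Tead1 and Tead4 moved apart by 1.75 ± 0.21 (SE), Tead3 and Tead4 by 1.17 ± 0.17, Tead1 and Tead2 by 0.98 ± 0.19, Tead2 and Tead4 by 0.77 ± 0.22 and Tead1 and Tead3 by 0.58 ± 0.16. Since the knock-down mean of Tead4 (3.53) was under 4, the sizes of the differences with Tead4 are not settled. Amot rose more than Amotl2 by 1.21 ± 0.15. The change of Lats1 was 0.59 ± 0.18 smaller than that of Lats2 (difference -0.59). Each of these 7 pairs gave the smallest exact p (0.0286, adjusted p = 0.0367 over the 9 pairs). Tead2 and Tead3 differed in change by -0.40 ± 0.21 (exact permutation p = 0.200) and Yap1 and Wwtr1 by -0.01 ± 0.16 (exact permutation p = 0.914), which did not pass. An adjusted p under 0.05 requires at least 6 pairs at the smallest p. When all probe sets of a gene were averaged 4 pairs reached it, all of them Tead pairs, so that 0 pairs passed. Amot and Amotl2 then differed in change by -0.11 ± 0.05. The Amot average takes in probe sets with means of 2.82 and 2.40, which lowers its change to 0.71, so it cannot decide this pair. Of the 6 Lats2 probe sets averaged, 4 likewise had means under 4. Without probe sets of the _x_at and _s_at kinds 6 pairs passed, and the pair of Lats genes did not, with the difference turned to 0.22 (exact permutation p = 0.0571).

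Outside the 10 members, 53 further pathway genes were measured, of which 17 rose, 6 fell and 30 did not pass (43.4% called, beside 22.6% of all genes), with a median log2 change of 0.03. By list the called shares were 53.8% (kinase cassette), 33.3% (polarity), 45.5% (cofactors) and 40% (Yap targets), beside 22.6% of all genes. These lists were written down with earlier results of the same arrays known, and their counts are descriptions.

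Among 13 genes of the Mst and Lats kinase cassette and its activators 6 rose, 1 fell and 6 did not pass. The rises were led by the kinase gene Taok3 (0.95 ± 0.09, SE, 4 arrays per group), whose relatives activate Mst kinases, and by Wwc2 (0.87 ± 0.05), a scaffold of the Kibra family that binds Lats. They were followed by Rassf1 (0.60 ± 0.11), a binding partner of Mst kinases, the Mst scaffold gene Sav1 (0.49 ± 0.06) and the Lats cofactor gene Mob1b (0.29 ± 0.07). Stk4, which encodes Mst1, was called too at 0.16, and 1 of its other probe sets was called in the opposite direction. Nf2, which encodes the membrane scaffold Merlin that recruits Lats, fell from 10.38 ± 0.02 to 9.76 ± 0.15 (SD, n = 4; change -0.62, limma adjusted p = 0.00104), with 3 of its 4 probe sets called. Calls were at 2 of 4 probe sets for Taok3, 3 of 5 for Wwc2, 1 of 4 for Rassf1 and 1 of 2 for both Sav1 and Mob1b. The median over the list was 0.16. Stk3, which encodes Mst2, was not analysed here for want of a probe set named for it alone.

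Of 9 genes of polarity and adhesion inputs 2 rose, 1 fell and 6 did not pass, with a median of 0.0044. Patj, a scaffold of the Crumbs polarity complex, read 5.77, 4.27, 4.55 and 5.403 in the control and 7.32, 7.41, 6.89 and 6.96 in the knock-down. The control arrays were widely spread, and all lay below the knock-down arrays (change 2.15 ± 0.34, SE, n = 4, limma adjusted p = 0.00475). Of its 4 probe sets 2 were called, and neither replicate set gave a call on its own (limma adjusted p = 0.0616 and 0.0666). The tight junction gene Tjp1 rose by 0.23, and Ctnna1, which encodes the catenin that links cadherins to actin, fell by 0.14 on the log2 scale. Calls were at the only probe set of Tjp1 and at 2 of 4 for Ctnna1.

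Of 11 cofactors and inhibitors of Yap and Tead 4 rose, 1 fell and 6 did not pass, with a median of 0.20. Vgll3, one of the Vestigial-like proteins that compete with Yap for Tead, read 7.79, 7.89, 7.48 and 7.48 in the control and 9.36, 9.31, 9.02 and 9.24 in the knock-down. Every knock-down array exceeded every control array by over 1 unit (change 1.57 ± 0.12, SE, n = 4, 2.98-fold, limma adjusted p = 1.83e-04), and 3 of 3 probe sets were called. Vgll4, an inhibitory relative, rose by 0.53, whereas Vgll1 and Vgll2 had control means of 2.29 and 2.68 and were not called. Amotl1, the third motin, read 8.87, 8.87, 8.76 and 8.69 in the control and 10.16, 10.05, 9.41 and 9.41 in the knock-down. It rose by 0.96 ± 0.19 (SE, n = 4, limma adjusted p = 0.0120), with 2 of its 3 probe sets called. The change was 1.23 in the first replicate set and 0.69 in the other, a difference that passed the limma interaction test (adjusted p = 0.0397). All 3 motin genes thus rose, but Amot had its larger change in replicates 3 and 4 and Amotl1 in replicates 1 and 2. Limd1, an adaptor that binds Lats, rose by 0.20, and the casein kinase gene Csnk1e, whose product marks Yap for degradation, fell by 0.69 on the log2 scale. Calls were at 1 of 2 probe sets for Limd1 and 2 of 3 for Csnk1e.

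**Figure D3:**
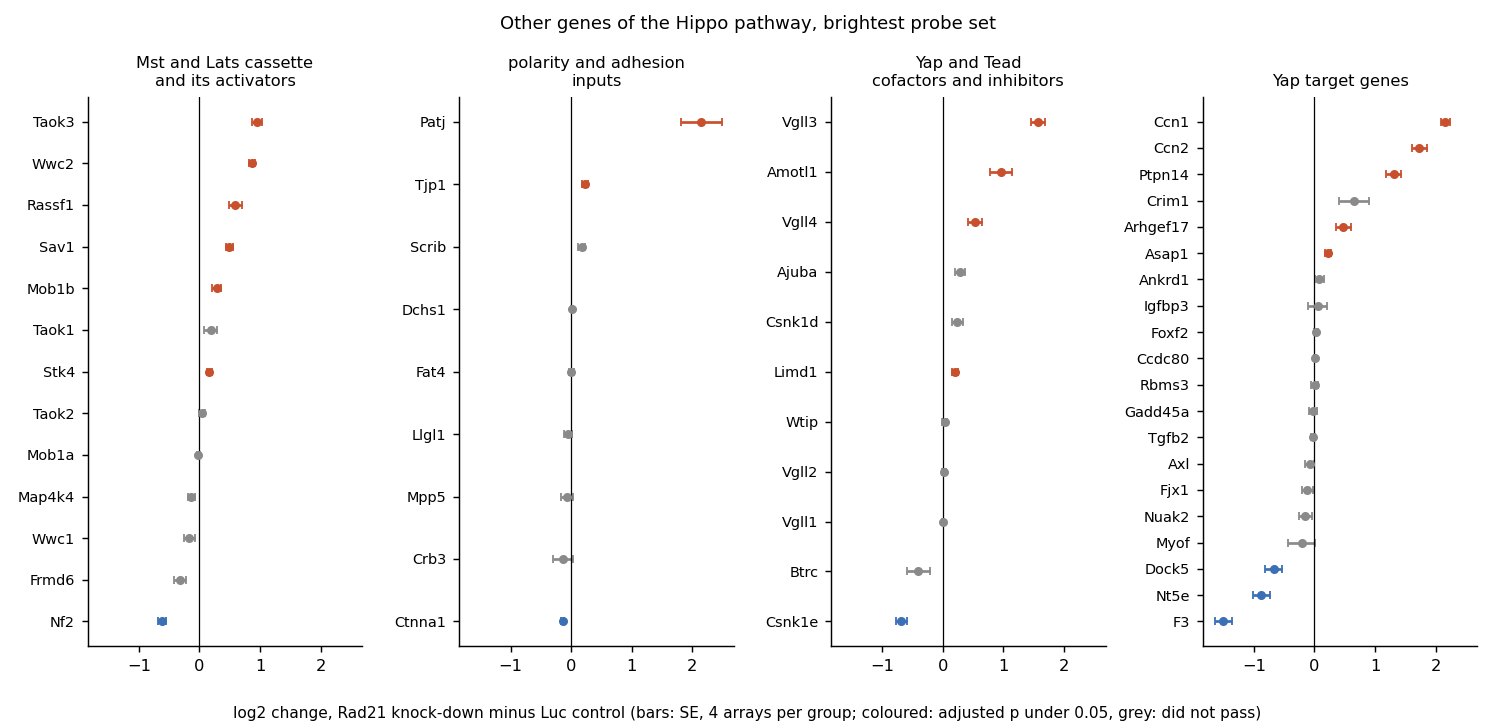
Log2 change (x axis, Rad21 knock-down minus Luc control, bars show the SE, 4 arrays per group) of the other 53 Hippo pathway genes by list, at the brightest probe set. Red genes rose and blue genes fell at an adjusted p under 0.05, and grey genes did not pass. Patj (2.15), Vgll3 (1.57) and Ccn1 (2.16) have the largest rises of their lists, and F3 (-1.50) has the largest fall of the target list.

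Of 20 genes of a set of Yap targets known from other cells (Amotl2 and Lats2 left out as members) 5 rose, 3 fell and 12 did not pass, with a median of 0.00696. Ccn1, a secreted matrix protein and a much used reporter of Yap activity, read 9.03, 8.95, 8.87 and 8.72 in the control and 11.01, 10.97, 11.12 and 11.11 in the knock-down. Its groups were about 2 units apart, and all 4 probe sets were called, the brightest being of the _x_at kind (change 2.16 ± 0.07, SE, n = 4, 4.47-fold, limma adjusted p = 8.79e-06). Ccn2, its relative, read 11.56, 11.77, 11.25 and 11.23 in the control and 13.26, 13.25, 13.10 and 13.12 in the knock-down. It rose 3.32-fold (change 1.73 ± 0.12, SE, n = 4, limma adjusted p = 1.44e-04). Ptpn14, a phosphatase that holds Yap in the cytoplasm, went from 8.36 ± 0.06 to 9.67 ± 0.27 (SD, n = 4; change 1.31, limma adjusted p = 5.66e-04), with 3 of 3 probe sets called. In the promoter windows of Ptpn14 and Vgll3 the Tead motif began 146 and 63 bases before the start.

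Other targets went down. The tissue factor gene F3 read 7.82, 8.11, 8.001 and 7.83 in the control and 6.47, 6.20, 6.27 and 6.81 in the knock-down, which left 35.3% of the control signal (change -1.50 ± 0.14, SE, n = 4, limma adjusted p = 4.42e-04). The ectonucleotidase gene Nt5e fell by 0.88 and the Rac activator gene Dock5 by 0.67 on the log2 scale. Calls were at 1 of 3 probe sets for Nt5e and 2 of 3 for Dock5. Arhgef17 (0.48, 1 of 5 probe sets called) and Asap1 (0.22, 1 of 3) were the other called rises. Ankrd1, a widely used Yap target, was at 2.78 in the control and 2.86 in the knock-down and was not called, and 6 of the 20 targets had both means under 4.

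**Figure D4:**
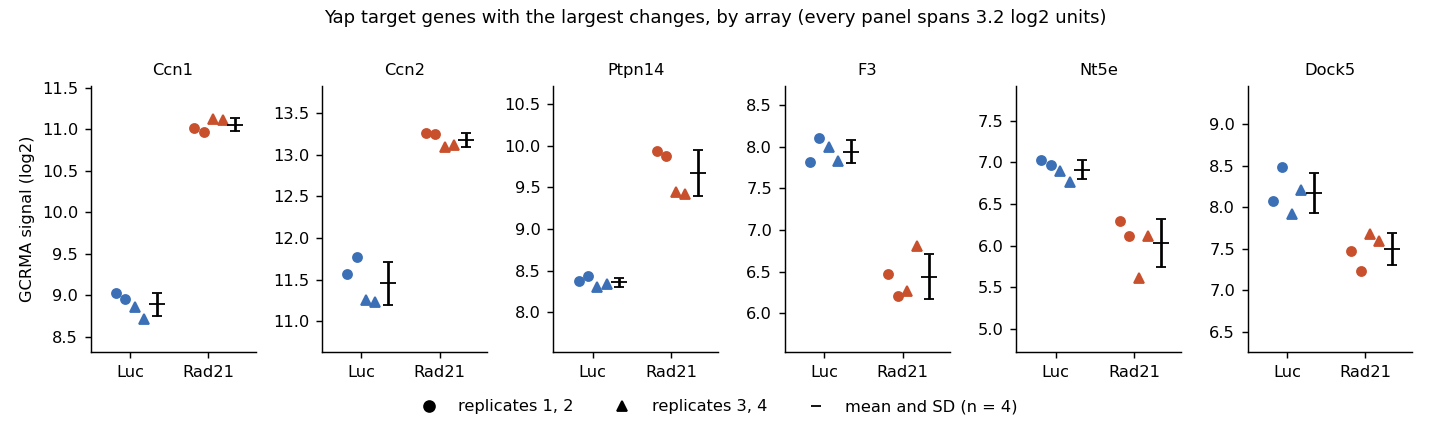
GCRMA signal (log2, y axis) of the 3 largest called rises and 3 called falls among the Yap target genes, on the 4 Luc and 4 Rad21 knock-down arrays, with the mean and SD (n = 4) as a black bar and symbols for the replicate sets. The groups are separate at all 6 genes, with Ccn1 at 8.89 against 11.05 and F3 at 7.94 against 6.44.

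Acta2, a smooth muscle actin gene of the fibroblast list, was 2.71 ± 0.13 (SE) higher in the same knock-down arrays in which Ccn1 and Ccn2 were higher. It was called at 1 of its 3 probe sets, which is of the _s_at kind. Of the 10 genes of that list 8 were not called and Thy1 fell (-0.56), with a list median of -0.00677. The part of Acta2 in the rise of Ccn1 and Ccn2 was not tested. Of the trophectoderm genes that depend on Tead4 in the embryo, Cdx2 rose. It read 3.51, 3.67, 3.39 and 3.71 in the control and 4.59, 5.09, 4.60 and 4.40 in the knock-down. All control arrays were under 4, so the size of its change (1.10 ± 0.15, SE, n = 4, limma adjusted p = 0.00244) is not settled. Of the 2 Cdx2 probe sets 1 was called. Gata3 read 2.33 in the control and 2.32 in the knock-down on average and was not called.

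Of the 23 called pathway genes outside the members 7 lost their call without at least 1 array. Stk4 kept it only without Luc replicate 4 or knock-down replicate 1, Mob1b only without knock-down replicate 3 or 4, and Arhgef17 only without Luc replicate 3 or knock-down replicate 4. For Tjp1 the arrays whose omission ended the call were 1 and 3 of the control and 2, 3 and 4 of the knock-down, and for Vgll4 they were 1 and 4 of the control and 1 and 2 of the knock-down. For Asap1 they were 2, 3 and 4 of the control and 2 of the knock-down, and for Limd1 they were 1, 2 and 4 of the control. The highest adjusted p-values by limma lay between 0.0568 (Limd1) and 0.116 (Stk4). With plain analysis of variance 6 of these 7 genes, all but Limd1, lost the call as well.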

How the data were processed

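Total RNA of R1/E cells was labelled from 250 ng according to the labels and hybridised to 8 Affymetrix mouse expression arrays. The authors computed the deposited log2 values in Partek 6.4 with GCRMA, which corrects for background by the GC content of the probes, puts the arrays on a common scale and combines the probes of a probe set. On a common scale a shift of the whole transcriptome would not be seen. Scanner files were not used here, and precision is limited by having 4 arrays per group.

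Of 45101 probe sets 64 controls were left out and 45037 tested. Symbols came from the platform annotation, checked by Entrez ID against RefSeq (GRCm38.p6). A single symbol was given for 34945 probe sets, of which 34741 were found there. Pals1 was matched as Mpp5. Where several probe sets carried a symbol alone, the brightest stood for the gene.

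The groups, taken from the labels, were compared with limma 3.58.1 (lmFit and eBayes, R 4.3.3), without a block or filter. Tests were two-sided, and Benjamini-Hochberg adjusted p under 0.05 over all probe sets was a call. The study's methods state an analysis of variance, which was run as an alternative. Confidence intervals are at 95%. The tests were checked on simulated data. Named genes are all members, Rad21, up to 5 called genes per direction in each list, Cdx2 and Gata3. Stk4, Vgll1, Vgll2, Ankrd1, Acta2, Thy1, Krt7, Krt8, Krt18, Eomes and Dab2 were named after their values were seen. Members, lists and tests were chosen with earlier results of these data known. Alternatives were the plain analysis of variance, centring on probe sets with a mean of at least 8, array weights, quantile normalization, a robust prior with a variance trend, leaving out probe sets with a mean under 4, a block for the replicate number or for the replicate set, other probe set choices, an adjusted p under 0.01, each replicate set alone and leaving out each array. Plots were drawn with matplotlib 3.10.9.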

Additional observations from a re-analysis of the deposited data

Results flagged for a closer look

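The change of Amot differed between the replicate sets, by 0.92 on the log2 scale (interaction adjusted p = 0.0430 by limma), with the larger rise in replicates 3 and 4. At the dimmer Lats1 probe set the knock-down array of replicate 3 read 6.15, away from the other knock-down arrays at 6.58, 6.61 and 6.62. At a Lats2 probe set near the low end of the scale the Luc array of replicate 2 read 2.97 and the other Luc arrays 2.33, 2.34 and 2.40. Among the 46 groups of 4 arrays looked at, chance alone would single out an array in about 1 of 20.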

How the results depend on the processing

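Amot, Amotl2 and Tead1 kept their direction and call under all alternatives run. The called members (7) numbered 5 to 6 without single arrays, 6 with the replicate number as a block and 3 in replicates 3 and 4 alone, the called further pathway genes (23) 17 to 22, 20 and 11, and the called probe sets (6697) 5395 to 6210 and 6224 with the replicate block. With the replicate set as a block 7 members, 26 further genes and 8177 probe sets were called. With plain analysis of variance, the method the study states, 5 members (not Tead2 and Lats1), 17 further genes and 5049 probe sets were called. Under the replicate block Lats2 lost its call (adjusted p = 0.0522), as did Dock5 (0.0811), Arhgef17 (0.126), Mob1b (0.0675), Tjp1 (0.0538) and Vgll4 (0.0523). In the labels, samples of one number share only that number. Their deviations from the group means correlated by 0.02 to 0.13, and 2 of 8 arrays correlated best with their own number. Between Luc and knock-down arrays of the same replicate set these correlations were 0.02 to 0.20. Across the replicate sets they were -0.19 to -0.04. At an adjusted p under 0.01, 3893 probe sets and 13 further pathway genes were called. With averaged probe sets 0 paralog pairs passed, and with plain analysis of variance or quantile normalization 0 members passed the interaction test. The members that were not called changed sign: Yap1 had 0.0197 after quantile normalization, 0.0473 with array weights, 0.0704 in replicates 3 and 4, 0.119 with averaged probe sets and -0.0921 to 0.0414 without single arrays. Wwtr1 had 0.000534 (quantile), 0.0113 (centring), 0.0655 (array weights), 0.0695 (replicates 3 and 4) and -0.101 to 0.0948 (without single arrays), and Tead3 had -0.254 in replicates 1 and 2 and -0.0217 to 0.181 without single arrays. The causes were not tested. Low signal limits Tead4, Cdx2 and the dimmer Lats2 and Amot probe sets.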
